A study of Mus musculus with 12 samples.

Results

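The isoforms described here belong to 5 mouse genes, Unc119, Dapk3, AI413582, Sun1 and Fst, in which 1 transcript each differed in the hippocampus of mice exposed to ethanol before birth, whether or not the pups were later separated from the dam. The genes were chosen by measured values of these same libraries, namely the ethanol contrast. All values of that contrast are therefore given as a description, with no test. All 53 annotated transcripts of the 5 genes were followed, out of 115270 transcripts in all: 7 of Unc119, 11 of Dapk3, 9 of AI413582, 20 of Sun1 and 6 of Fst. Of these, 35 passed the filter on low values (0.1 TPM or more in at least 6 of 12 libraries), 14 were above 0 in some library but did not pass, and 4 were at 0 in every library.

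Hippocampal RNA came from 12 C57BL/6 males (the C57BL/6J substrain, per the methods) at postnatal day 70, in 4 groups of 3. Control mice had a dam that drank water and were left undisturbed with it. Ethanol mice had a dam with free choice of 10% ethanol in water or plain water, during gestation per the labels. The methods of the study give a longer span, which began before mating and ran on into the early postnatal days. Stress mice had a water-drinking dam and spent 3 h of each day alone, away from dam and litter, between postnatal days 2 and 14, and ethanol + stress mice had both. In the text below, "exposed" means the 6 ethanol and ethanol + stress mice, and "not exposed" the 6 control and stress mice. Intake was voluntary, so the dose per dam could differ, and pups of a litter were split between separated and undisturbed, but the litter of each sequenced mouse is not given in the sources used here. The p-values thus measure the spread between these 12 mice, some of which may be littermates.

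Each level is in TPM, a measure of transcript abundance corrected for transcript length and library size, which the authors had scaled between libraries. The libraries held 11963200 to 14815800 read pairs, as recovered from the steps between low values. A level worth 3 read pairs is used below as the limit under which a value cannot be told from 0 by counting error. The 9 hippocampal neuron markers were above 0 in every library, with summed levels of 815 to 1066 TPM. The 5 blood markers summed to 1603 to 2022 TPM in control mice, 2593 to 3392 TPM after stress alone, 3146 to 6815 TPM after ethanol alone and 2454 to 6480 TPM after both, and so tended to be higher in exposed mice (median 3725 against 2308 TPM). The 7 choroid plexus markers ranged from 40.5 to 7243 TPM across libraries, with medians of 1262 in exposed and 1753 in not exposed mice. All genes of both lists were above 0 in every library, and their part in the results below was not tested.

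One gene can give several RNAs by starting at different first exons, by skipping exons or parts of exons, or by keeping an intron. Such isoforms can encode different proteins, or none where a kept intron brings in an early stop. UNC119 is a chaperone that binds proteins carrying a myristoyl lipid, such as Src family kinases, and lets go of them when the small GTPases ARL2 or ARL3 bind. DAPK3, also called ZIP kinase, phosphorylates the regulatory light chain of myosin and the targeting subunit of myosin phosphatase. SUN1 spans the inner nuclear membrane and joins with nesprins to form the LINC complex, which ties the nucleus to the cytoskeleton. Follistatin, made by Fst, is a secreted protein that binds activin and keeps it from its receptors. AI413582, for which RefSeq lists the synonym Smim29, is predicted to encode a small membrane protein.

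The 5 isoforms that differed fall into 3 that were lower in exposed mice, all annotated as protein-coding, and 2 that were higher, both annotated as retained introns. A feature that sets each apart from the most abundant isoform of its gene is shown here on the transcript sequence (GENCODE M21, GRCm38, 5′ to 3′). In Unc119 the feature is the first exon: ENSMUST00000100755.3 starts with its own exon at chr11:78346666-78346759, inside the first intron of ENSMUST00000002127.13. Capitals mark the last 25 bases of the first exon, and lower case the start of the shared exon 2 (plus strand). All 60 bases of both are annotated as coding, and the capitals of the former open with its start codon.
Unc119 ENSMUST00000100755.3: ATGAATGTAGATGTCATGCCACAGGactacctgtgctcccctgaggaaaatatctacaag
Unc119 ENSMUST00000002127.13: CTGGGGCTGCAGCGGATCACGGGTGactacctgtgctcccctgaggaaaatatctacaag

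The Dapk3 isoform, ENSMUST00000218227.1, is a fragment of 403 bases that joins 2 exons directly and so skips an exon of 27 bases at chr10:81191042-81191068. Capitals mark that exon in the most abundant isoform, and the junction of the other lies between the same flanks (plus strand).
Dapk3 ENSMUST00000218227.1: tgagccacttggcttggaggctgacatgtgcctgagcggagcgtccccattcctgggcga
Dapk3 ENSMUST00000219133.1: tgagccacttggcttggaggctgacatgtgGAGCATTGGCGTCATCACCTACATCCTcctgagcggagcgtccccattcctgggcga
In AI413582 the second exon of ENSMUST00000231753.1 ends 60 bases before that of ENSMUST00000154473.8, so that chr17:27564562-27564621 is left out (minus strand). Capitals mark those bases. Both this stretch and the skipped Dapk3 exon are coding in the most abundant isoform, and both lengths are multiples of 3.
AI413582 ENSMUST00000231753.1: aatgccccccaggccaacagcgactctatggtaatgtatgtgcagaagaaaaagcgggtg
AI413582 ENSMUST00000154473.8: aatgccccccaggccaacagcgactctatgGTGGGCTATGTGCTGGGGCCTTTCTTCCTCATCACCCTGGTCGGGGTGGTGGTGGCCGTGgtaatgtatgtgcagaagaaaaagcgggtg

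Both isoforms that were higher run from an exon into the neighbouring intron. The Sun1 isoform, ENSMUST00000123414.1, has 2 exons and 643 bases. Its second exon, chr5:139215158-139215775, begins like the second exon of the most abundant isoform and reads on past the splice donor into the intron, of which the first 60 bases are in capitals (plus strand).
Sun1 ENSMUST00000123414.1: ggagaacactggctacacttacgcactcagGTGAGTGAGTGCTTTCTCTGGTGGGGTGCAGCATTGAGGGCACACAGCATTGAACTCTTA
Sun1 ENSMUST00000110883.8: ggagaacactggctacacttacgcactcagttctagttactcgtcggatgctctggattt
The Fst isoform, ENSMUST00000223865.1, has 2 exons and 673 bases. It begins in the intron ahead of a shared exon, and its first 41 bases, in capitals, are intronic in the most abundant isoform, whose own joint to that exon is shown on the next line (minus strand). Not shown is a second difference in splicing: the last exon of the former, chr13:114453105-114453505, begins at an acceptor further downstream than that of the latter, chr13:114452290-114453805.
Fst ENSMUST00000223865.1: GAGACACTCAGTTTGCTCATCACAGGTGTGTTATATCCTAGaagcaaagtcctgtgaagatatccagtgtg
Fst ENSMUST00000223640.2: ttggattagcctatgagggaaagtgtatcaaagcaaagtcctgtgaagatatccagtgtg

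**Figure D1:**
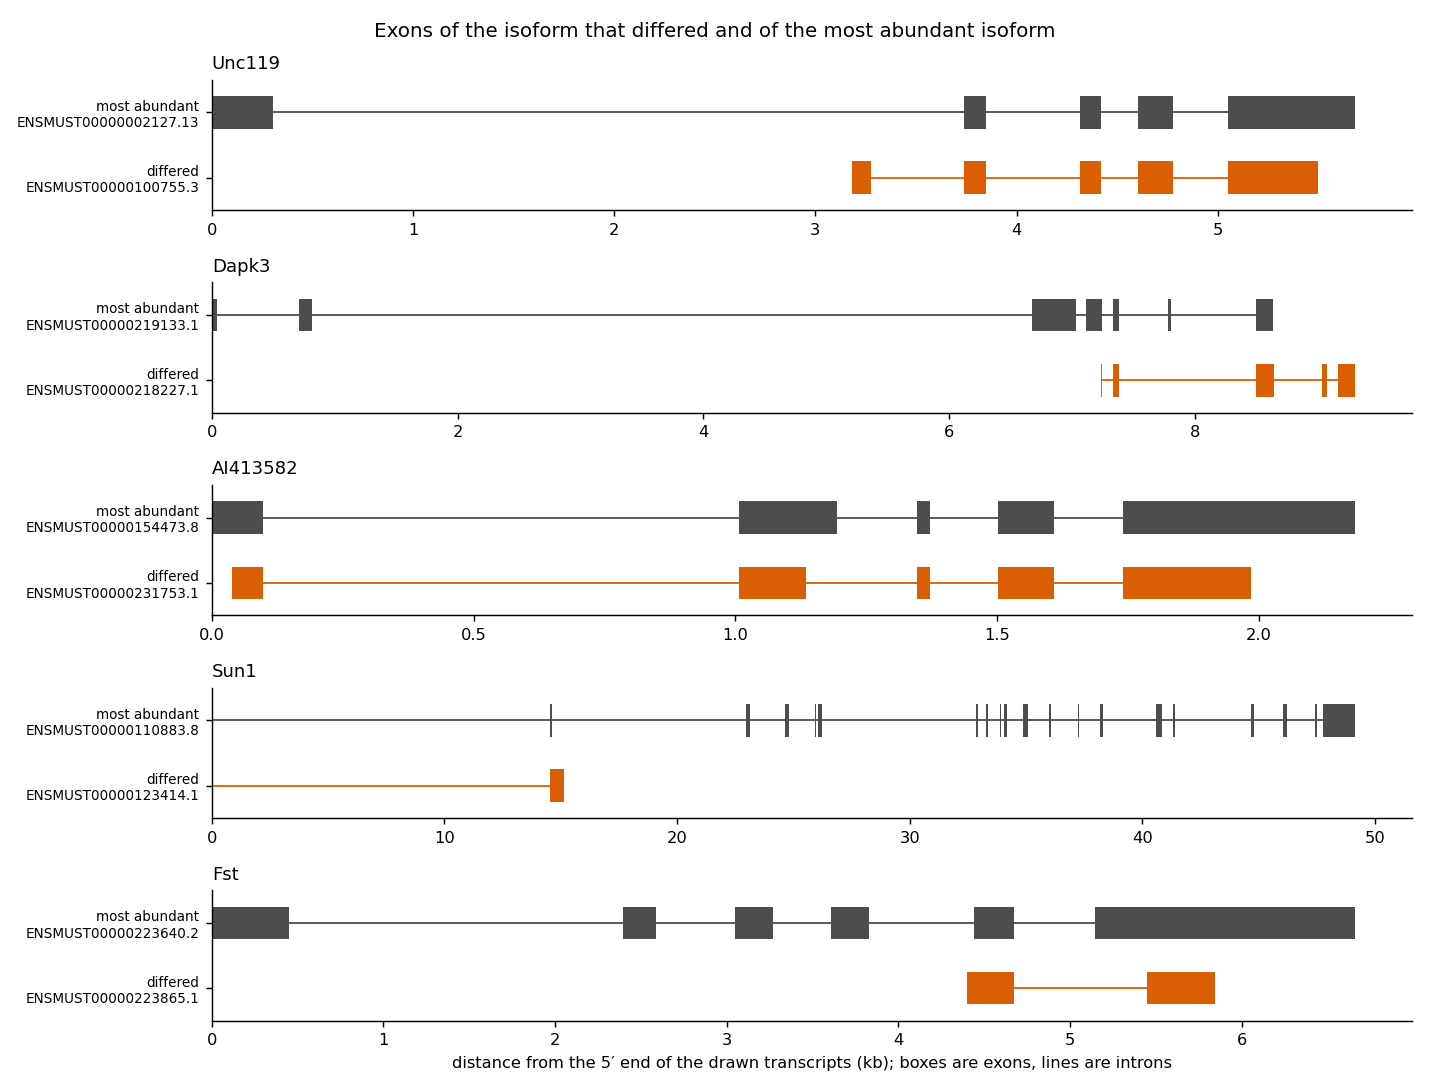
Exons (boxes) and introns (lines) of the isoform that differed and of the most abundant isoform of each gene, drawn by distance in kb from the 5′ end. The Unc119 isoform starts at a later first exon, the Dapk3 isoform lacks an exon of 27 bases, the AI413582 isoform has a second exon that is 60 bases shorter, and the Sun1 and Fst isoforms cover only part of the gene and run into an intron.

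How well reads can tell each isoform from the rest was counted in words of 31 bases, the default length in kallisto (the length the authors used is not given in the sources used here). The Unc119 isoform holds 93 words of 903 found in no other annotated transcript, the Dapk3 isoform 29 of 373, the AI413582 isoform 26 of 533 and the Sun1 isoform 247 of 613. The Fst isoform has 0 of 643: 602 are shared with ENSMUST00000022287.7, and its 5′ part lies in the unspliced transcript ENSMUST00000231498.1, which shares 402. Of the Sun1 isoform, 274 words also occur, on the opposite strand, in the antisense gene 4930520M14Rik, which was not analysed here, and 29 words of the AI413582 isoform occur in the antisense gene C130040N14Rik, likewise not analysed here, and 42 in the gene Gm3145. Whether strand was used when the reads were assigned is not given in the sources used here.

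The Unc119 isoform with the alternative first exon was at 3.03, 4.25 and 4.54 TPM in the control mice, while the stress mice had 3.59, 2.07 and 2.11 TPM. In ethanol mice it was listed at 0, 0 and 0.457 TPM, and in ethanol + stress mice at 0 in all 3. The 6 exposed and 6 not exposed mice did not overlap. In RNA of whole tissue, fewer cells of a type and less RNA per cell cannot be told apart. Among not exposed mice the values came from 11.4 to 26.5 read pairs, and the only nonzero exposed value from 3.10, where 3 read pairs were worth 0.443 to 0.551 TPM in the 12 libraries. The isoform made up 6.15% to 15.8% of the summed TPM of Unc119 in not exposed mice and at most 1.51% in exposed mice. On the log2(TPM + 0.5) scale the ethanol difference was -2.71 (SE 0.24, n = 6 against 6), with -2.82 in undisturbed and -2.59 in separated mice. Where a group is listed at 0, such a difference depends on the added 0.5 and bounds no fold. Such a group also adds no spread to the SE, which can then understate the uncertainty.

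The Dapk3 isoform without the exon of 27 bases was at 3.55, 3.61 and 3.61 TPM in control mice and at 2.64, 0.517 and 2.96 TPM in stress mice. It was listed at 0 in all 6 exposed mice. The values of the control mice lay close together, and stress replicate 2 was far below the other not exposed mice. The transcript is short and the depth thin: the not exposed values stood for 0.798 to 5.93 read pairs, and 3 read pairs were worth 1.59 to 1.98 TPM, so that stress replicate 2 lay under that limit. Its share of Dapk3 was 1.497% to 9.55% in not exposed mice. The ethanol difference was -2.59 on the log2(TPM + 0.5) scale (SE 0.29), with -3.03 in undisturbed and -2.15 in separated mice.

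The AI413582 isoform with the shorter second exon was the most deeply covered of the 5. Control mice had 11.2, 18.4 and 8.41 TPM of it, and stress mice 16.1, 5.07 and 8.10 TPM, from 13.9 to 53.0 read pairs. In ethanol mice it was at 8.68e-06, 4.85e-07 and 0 TPM, all far below 1 read pair. In ethanol + stress mice it was at 0.00370 and 0.000130 TPM in replicates 1 and 2 and at 3.13 TPM, or 8.91 read pairs, in replicate 3. That single value came nearest to the not exposed mice, whose lowest was 5.07 TPM. The share of the gene was 10.0% to 26.2% in not exposed and at most 3.46% in exposed mice, and the ethanol difference was -3.95 on the log2(TPM + 0.5) scale (SE 0.49), with -4.65 in undisturbed and -3.25 in separated mice.

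The Sun1 isoform with the kept intron was listed at 0 in all 6 not exposed mice. It was at 0.773, 0.904 and 0.734 TPM in ethanol mice and at 0.260, 0.512 and 0.865 TPM in ethanol + stress mice. These values stood for 2.99 to 3.03 read pairs in 4 mice and for 1.005 and 2.02 in ethanol + stress replicates 1 and 2, so that all lay at, within 0.05, or under the limit of 3 read pairs that a count of 0 allows, and the difference of a single mouse from 0 was not detectable at this depth. In exposed mice the isoform made up 0.573% to 2.09% of the summed TPM of Sun1. The ethanol difference was 1.20 on the log2(TPM + 0.5) scale (SE 0.15, to which the 6 not exposed values at 0 added no spread).

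The Fst isoform with the intronic 5′ part was likewise listed at 0 in all 6 not exposed mice. It was at 0.861, 0.757 and 0.639 TPM in ethanol mice and at 0.649, 0.355 and 0.258 TPM in ethanol + stress mice, from 0.959 to 3.56 read pairs. Only 1 of 6 exposed values, that of ethanol replicate 1, lay above the level worth 3 read pairs. Fst itself was low in these libraries, so the isoform made up 15.2% to 61.8% of its summed TPM in exposed mice. The ethanol difference was 1.09 on the log2(TPM + 0.5) scale (SE 0.13, with the same limit).

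**Figure D2:**
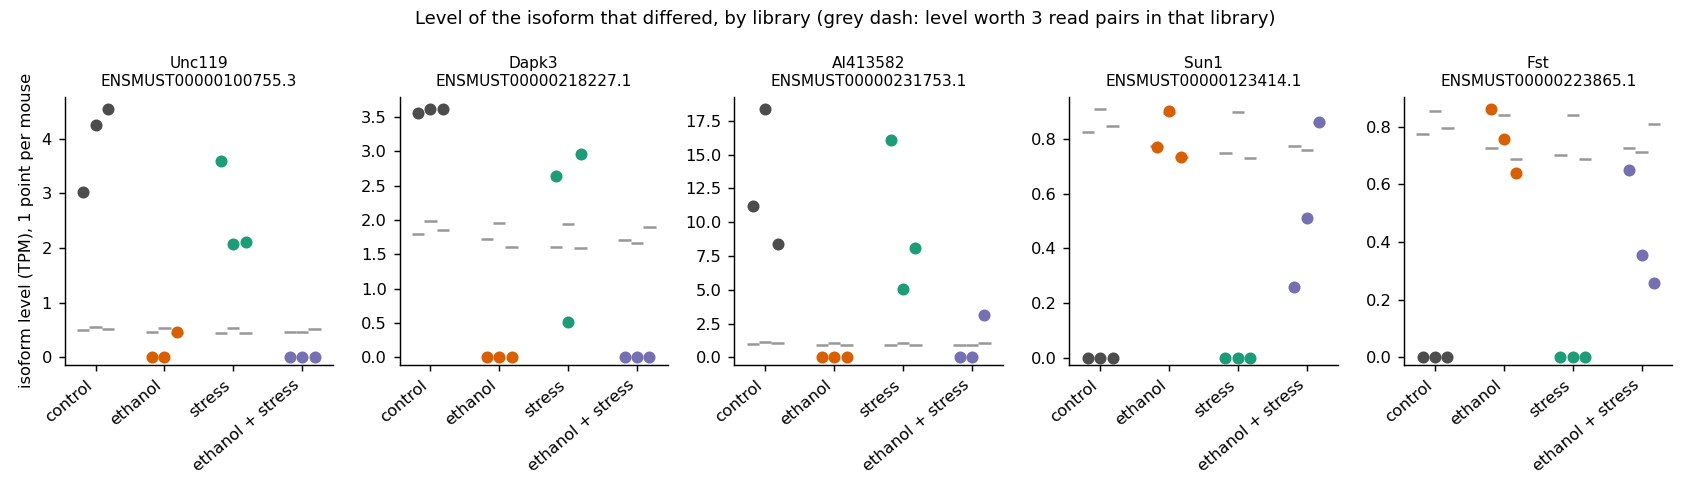
TPM of the isoform that differed in each gene, 1 point per mouse, by group, on a linear axis, with a grey dash at the level worth 3 read pairs in that library. The Unc119, Dapk3 and AI413582 isoforms sit at or near 0 in the exposed mice, apart from AI413582 in ethanol + stress replicate 3 at 3.13 TPM, and the Sun1 and Fst isoforms sit at 0 in all 6 not exposed mice and near or under the dash in the others.

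The 5 isoforms were the only members of 35 tested whose exposed and not exposed values did not overlap, 1 in each gene. Over all 59852 tested transcripts, 0.396% did not overlap, 0.306% with the exposed mice higher and 0.0902% with them lower. By limma, 1.47% of all tested transcripts had an unadjusted p under 0.01 for ethanol. Of these calls 70.6% were higher in exposed mice, 56.8% after rescaling to a common total and 49.5% after each library's trend over transcript length was removed. The genes were chosen on that contrast, so these shares stand here only as background. The 5 isoforms are shorter than most tested transcripts, whose median was 1746 bases: at 933 (Unc119), 403 (Dapk3), 563 (AI413582), 643 (Sun1) and 673 bases (Fst) they lay at the percentiles 34.2, 3.91, 12.3, 17.3 and 19.6 of length. Their mean levels were at the percentiles 52.5, 48.9, 74.0, 14.9 and 11.99 in the same order. A value of 0 in at least 1 library was found in 39.96% of tested transcripts, and 21.7% were annotated as retained introns.

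Just inside the edge of non-overlap, the Fst isoform was at 0 in all not exposed mice and at least at 0.258 TPM in exposed mice, the Sun1 isoform at 0 and at least 0.260 TPM. The Dapk3 isoform was at 0 in all exposed mice and at least at 0.517 TPM in not exposed mice, the lowest value being that of stress replicate 2, which stood for 0.798 read pairs and so lay under the limit of 3. The highest exposed value of the AI413582 isoform was 3.13 TPM against a lowest not exposed value of 5.07 TPM. Just outside it was the AI413582 transcript ENSMUST00000231365.1, a retained intron of 1204 bases, at 0.652 to 1.66 TPM in exposed and 0.301 to 0.741 TPM in not exposed mice. In that transcript only ethanol + stress replicate 1 fell among the not exposed mice.

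The most abundant isoforms showed no such split. In Unc119, ENSMUST00000002127.13 held 87.9% of the mean level of the gene: control mice had 30, 25.1 and 21.4 TPM, stress mice 29.9, 28.04 and 29.8 TPM, ethanol mice 28.3, 33.5 and 27.6 TPM and ethanol + stress mice 25.7, 39.8 and 30.7 TPM. Its ethanol difference was 0.17 (SE 0.12) on the log2(TPM + 0.5) scale. In Dapk3 the level was spread over several isoforms: ENSMUST00000219133.1 held 30.5%, ENSMUST00000178422.8, which encodes a protein, 25.05%, and ENSMUST00000217936.1, a retained intron, 23.3%. In Sun1, ENSMUST00000110883.8 held 37.0%, with 15.9, 19.0 and 17.6 TPM in control, 14.9, 17.4 and 13.7 TPM in stress, 16.0, 13.4 and 16.7 TPM in ethanol and 17.8, 9.72 and 13.5 TPM in ethanol + stress mice (ethanol difference -0.19, SE 0.14). In Fst, ENSMUST00000223640.2 held 45.4%, with 0.802, 0.525 and 0.370 TPM in control, 0.786, 0.586 and 0.441 TPM in stress, 0.304, 0.552 and 0.879 TPM in ethanol and 0.831, 0.434 and 0.904 TPM in ethanol + stress mice (ethanol difference 0.07, SE 0.22). The exposed and not exposed values of each of these isoforms overlapped.

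AI413582 was the gene in which the most abundant isoform stood furthest toward the other side. ENSMUST00000154473.8, which keeps the 60 bases, was at 35.01, 27.9 and 28.5 TPM in the control mice, with 46.8, 24.7 and 33.8 TPM in the stress mice. The ethanol mice had 37.9, 52.9 and 36.6 TPM and the ethanol + stress mice 39.1, 52.4 and 53.2 TPM, so that only stress replicate 1 reached into the exposed range. The ethanol difference was 0.47 on the log2(TPM + 0.5) scale (SE 0.16), opposite in sign to that of the shorter isoform, with which it shares 507 of 533 words. Other isoforms of the gene varied widely within groups. ENSMUST00000231948.1, annotated for nonsense-mediated decay, was close to 0 in stress replicate 1 and ethanol + stress replicate 1 and between 6.22 and 24.6 TPM in the others, and ENSMUST00000232203.1 was at 0 in ethanol + stress replicate 1 and between 3.07 and 18.8 TPM in the others.

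**Figure D3:**
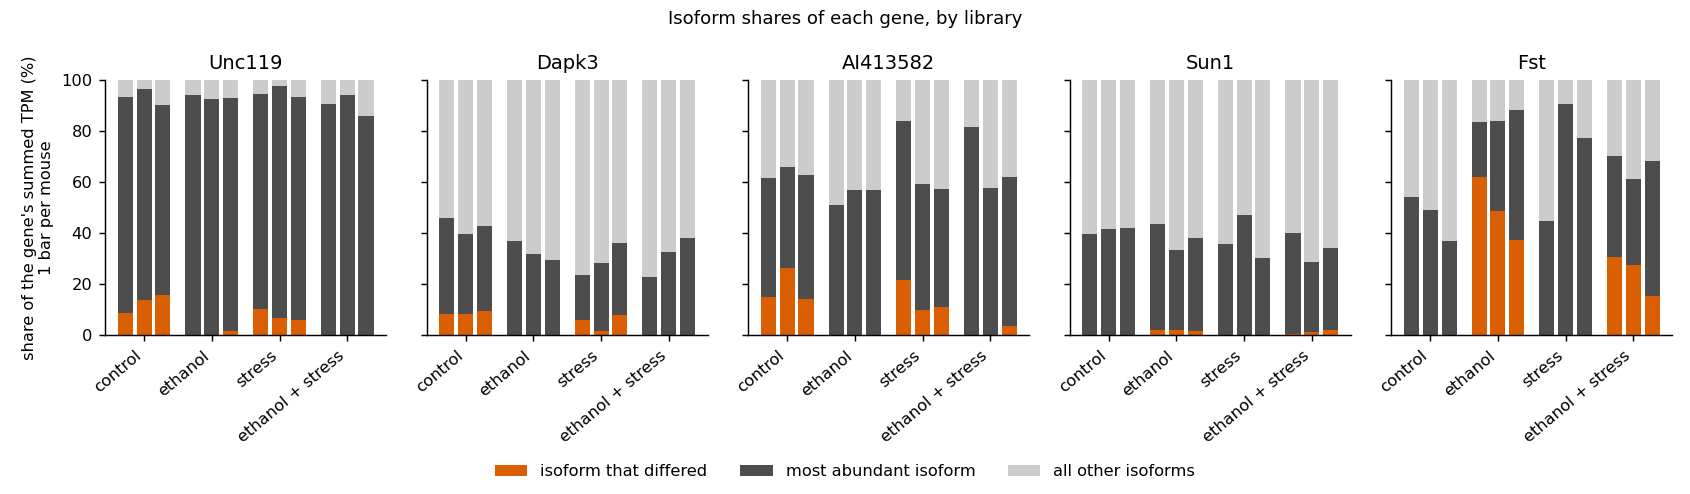
Share of each gene's summed TPM in percent, 1 stacked bar per mouse, for the isoform that differed, the most abundant isoform and all other isoforms together. The isoform that differed is visible in the control and stress bars of Unc119, Dapk3 and AI413582 (1.497% to 26.2%) and in the ethanol and ethanol + stress bars of Fst (15.2% to 61.8%), and stays at or under 2.09% in Sun1.

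The summed TPM of Unc119, Dapk3 and Sun1 differed between exposed and not exposed mice by less than the SD between mice. Control mice had a sum of 31.6 ± 3.47 TPM for Unc119, ethanol mice 32.2 ± 3.46, stress mice 33.5 ± 2.44 and ethanol + stress mice 35.5 ± 6.93 TPM (SD, n = 3 each). Dapk3 summed to 40.9 ± 2.69, 40.2 ± 0.690, 38.9 ± 5.41 and 41.8 ± 1.21 TPM in the same order, and Sun1 to 42.5 ± 2.75, 42.4 ± 3.804, 41.3 ± 4.18 and 41.1 ± 4.82 TPM. The ethanol differences of these 3 sums were 0.05 (SE 0.10), 0.05 (SE 0.07) and -0.01 (SE 0.08) on the log2(TPM + 0.5) scale. Without the isoform that differed, Unc119 summed to 29.3 ± 3.48 TPM in not exposed and 33.8 ± 5.29 TPM in exposed mice (SD, n = 6 each). Dapk3 then summed to 37.1 ± 3.46 and 41.0 ± 1.23 TPM, and Sun1 to 41.9 ± 3.23 and 41.1 ± 3.97 TPM. The rest of Unc119 and of Dapk3 thus had a higher mean in exposed mice, which was not tested.

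For AI413582 the sums were 68.0 ± 8.21 TPM (control), 77.4 ± 14.7 TPM (ethanol), 66.2 ± 13.6 TPM (stress) and 76.5 ± 24.8 TPM (ethanol + stress), an ethanol difference of 0.17 (SE 0.17). Without the isoform that differed, the sums were 55.9 ± 7.85 TPM in not exposed and 76.4 ± 17.8 TPM in exposed mice (SD, n = 6 each). Fst summed to 1.19 ± 0.260, 1.56 ± 0.164, 0.992 ± 0.663 and 1.70 ± 0.412 TPM in control, ethanol, stress and ethanol + stress mice, an ethanol difference of 0.46 (SE 0.19). Without its retained-intron isoform, Fst summed to 1.09 ± 0.463 TPM in not exposed and 1.04 ± 0.366 TPM in exposed mice, a difference smaller than the SD. These sums come from the contrast that chose the genes and were not tested.

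**Figure D4:**
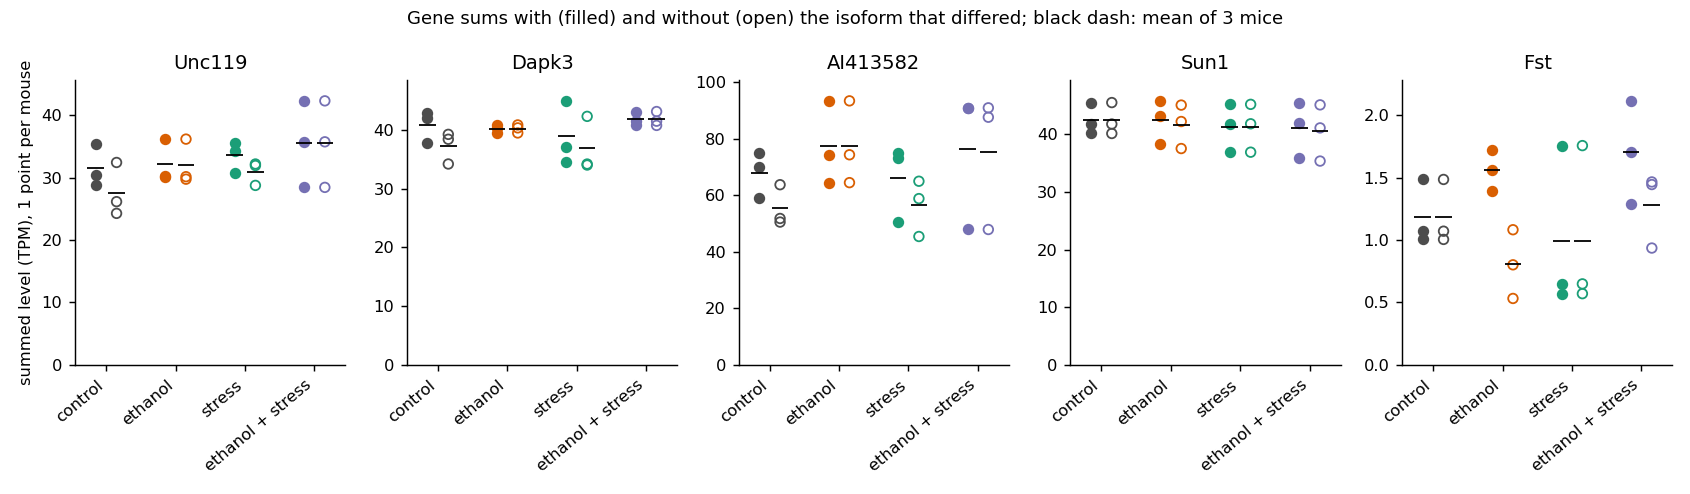
Summed TPM of each gene per mouse, with (filled points) and without (open points) the isoform that differed, and the mean of each 3 mice as a black dash. The filled points of the groups overlap in all 5 genes. In Fst the ethanol mean falls from 1.56 to 0.805 TPM once the isoform is left out, and the ethanol + stress mean from 1.70 to 1.28 TPM.

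Maternal separation was not the contrast on which the isoforms were chosen, but the choice asked for an ethanol difference in both rearing conditions and so was not fully independent of it. The Dapk3, Sun1 and Fst isoforms were above 0 in 1 prenatal group only, so their separation values come from 6 mice and are given as a description. Over both prenatal groups together no member transcript was called: 0 of 35 had a limma p under 0.01 for separated against undisturbed mice, where 0.934% of all tested transcripts did (559, with 2479 at an unadjusted p under 0.05). Of the members, 2 had an unadjusted p under 0.05, and every member other than those 3 isoforms had an adjusted p of 0.9998 by limma. The differences of the 5 isoforms on the log2(TPM + 0.5) scale were -0.43 (SE 0.24) for Unc119, -0.44 (SE 0.29) for Dapk3, 0.26 (SE 0.49) for AI413582, -0.18 (SE 0.15) for Sun1 and -0.23 (SE 0.13) for Fst. The separation differences of the gene sums were 0.11 (SE 0.10), -0.01 (SE 0.07), -0.06 (SE 0.17), -0.05 (SE 0.08) and -0.08 (SE 0.19) in the same order, each with an adjusted p of 0.9999 by limma.

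The smaller of these unadjusted p-values belonged to the most abundant Dapk3 isoform, ENSMUST00000219133.1. Of its 814 words of 31 bases, 0 are found in no other annotated transcript, so no single word sets it apart. How far its level rests on the division of shared reads was not tested. Control mice had 15.7, 13.4 and 12.5 TPM and stress mice 7.91, 9.18 and 10.5 TPM, while ethanol mice had 15.1, 12.9 and 11.6 TPM and ethanol + stress mice 9.49, 14.1 and 15.5 TPM. The 3 stress values were all below the 3 control values, while the exposed groups overlapped. The separation difference was -0.30 (SE 0.13, adjusted p = 0.9998 by limma), with -0.57 (SE 0.19) among mice of water-drinking dams and -0.04 (SE 0.19) among exposed mice. The other was the Unc119 retained intron ENSMUST00000149161.1, with a difference of 0.36 (SE 0.16, adjusted p = 0.9998 by limma). It too has 0 words, of 1155, that are found in no other annotated transcript. It was at 0 in all 3 ethanol mice and at 0.244, 0.236 and 0.528 TPM in ethanol + stress mice, from 2.07 to 4.10 read pairs, while control mice had 0.263, 0 and 0.265 TPM and stress mice 0.276, 0.251 and 0 TPM. The exposed groups did not overlap, though only ethanol + stress replicate 3 lay above the limit of 3 read pairs, and the control and stress mice did overlap. The separation difference was 0.72 (SE 0.23, adjusted p = 1 by limma) among exposed mice and -0.001 (SE 0.23) among the others. It was the 1 member of 35 called for separation among exposed mice, beside 0.964% of all tested transcripts. Among mice of water-drinking dams 0 of 35 were called, beside 0.914%. The Dapk3 isoform that differed was at 0 in all exposed mice and could not be called among them. Nor could those of Sun1 and Fst among mice of water-drinking dams, where they were at 0, so these counts are a description. The call of ENSMUST00000149161.1 was lost with a pseudocount of 1, with the replicate block and without any 1 of the 6 exposed mice, among other settings. Its difference among exposed mice was 0.57 to 0.81 when a library was left out.

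The interaction is the ethanol difference in separated mice minus that in undisturbed mice. For the 5 isoforms it is made of the values on which they were chosen, so it is given for them as a description, and nothing is read from the count of 0 of 35 members called, beside 0.854% of all tested transcripts (511, with 2432 at an unadjusted p under 0.05). The differences of the ethanol effects were 0.23 (SE 0.49) for Unc119, 0.88 (SE 0.58) for Dapk3, 1.39 (SE 0.99) for AI413582, -0.36 (SE 0.29) for Sun1 and -0.46 (SE 0.25) for Fst. In Dapk3, Sun1 and Fst these rest on the same 6 values as the separation differences. Of the other members, 2 had an unadjusted interaction p under 0.05: ENSMUST00000149161.1 of Unc119 (difference 0.72, SE 0.32) and ENSMUST00000145183.2 of AI413582 (difference -0.94, SE 0.38), both with an adjusted p of 0.99997 by limma. The latter was at 1.60 to 2.59 TPM in the 6 not exposed mice, at 2.88, 3.63 and 2.02 TPM in ethanol and at 1.27, 1.70 and 1.23 TPM in ethanol + stress mice. Without ethanol + stress replicate 1, 1 member was called in the interaction, the most abundant Dapk3 isoform ENSMUST00000219133.1.

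As a share of the gene, on the scale of log2((TPM + 0.5) / (rest of the gene + 0.5)), 0 of 35 members were called for separation by limma, against 1.07% of the 52732 transcripts tested in this way. The values of the Dapk3, Sun1 and Fst isoforms, at 0 in all mice of 1 prenatal group, are here too a description and no test. None of the others had an unadjusted p under 0.05, and the smallest was that of the Unc119 isoform with the alternative first exon (difference -0.58, SE 0.27), whose share was 8.54%, 14.0% and 15.8% in control and 10.1%, 6.71% and 6.15% in stress mice.

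**Figure D5:**
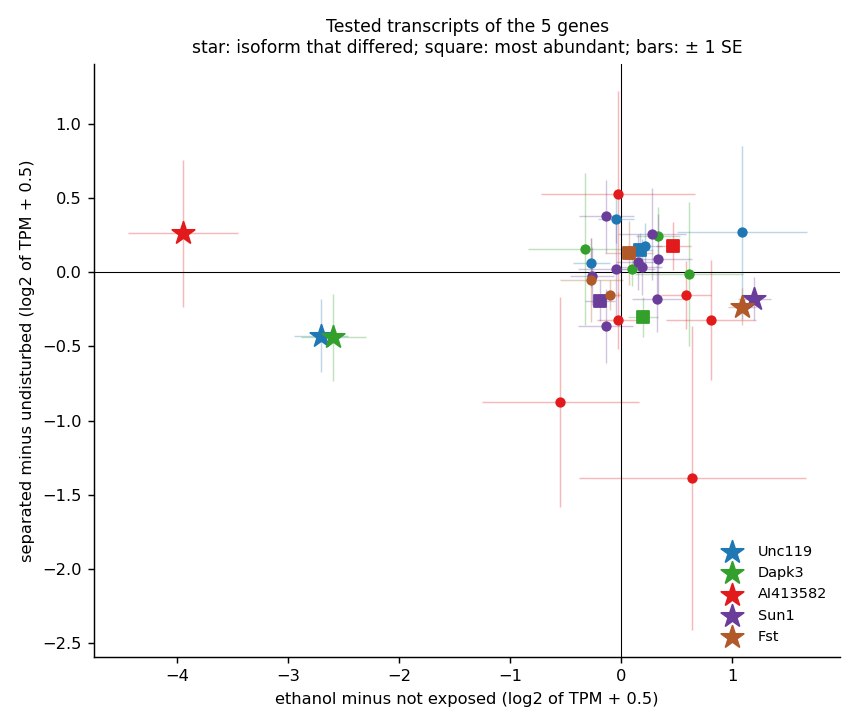
Ethanol difference (horizontal axis) against separation difference (vertical axis) on the log2(TPM + 0.5) scale for the 35 tested transcripts, coloured by gene, with bars of 1 SE. The isoforms that differed (stars) sit at -3.95 to -2.59 or at 1.09 to 1.20 on the ethanol axis, on which they were chosen, and between -0.44 and 0.26 on the separation axis.

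The start of the Unc119 isoform was looked at in RefSeq start windows of 300 bases (250 before to 50 after an annotated start, GRCm38.p6). The window at the main start, chr11:78343245-78343544, holds 22 CG dinucleotides at 64.0% G and C, and 76.9% of 32851 such windows hold fewer. The window at the alternative start, chr11:78346460-78346759, holds 2 at 54.0%, and 14.1% of windows hold fewer, where the median is 7. RefSeq lists a further start between these, whose window, chr11:78345334-78345633, holds 2 CG at 52.3% G and C. The CCAAT motif, on either strand, occurs in the alternative window and in neither of the others, and in 37.4% of all windows. TATAAA occurs in none of these, and in 13.6% of all windows. The part of the main and of the alternative window upstream of the exon is shown with each CG in capitals (plus strand), since it is a stretch that these starts do not share.
main start, chr11:78343245-78343481: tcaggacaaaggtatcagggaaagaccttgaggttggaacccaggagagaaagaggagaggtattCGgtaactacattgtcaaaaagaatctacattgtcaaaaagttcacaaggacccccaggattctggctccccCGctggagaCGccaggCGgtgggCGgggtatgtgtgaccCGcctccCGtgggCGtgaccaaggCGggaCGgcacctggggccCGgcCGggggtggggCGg
alternative start, chr11:78346460-78346665: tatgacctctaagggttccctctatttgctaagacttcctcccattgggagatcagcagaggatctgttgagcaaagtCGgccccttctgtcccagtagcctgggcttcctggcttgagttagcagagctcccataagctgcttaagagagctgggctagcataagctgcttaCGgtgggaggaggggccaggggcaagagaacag
The methylation of these stretches was not analysed here.

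The partners and targets of the member proteins were followed as 4 lists of 59 genes, with the members left out. Of their 206 tested transcripts, 2 were called for ethanol by limma (0.971%, against 1.47% of all tested transcripts) and 0 for separation (against 0.934%). The UNC119 list, with Unc119b, the GTPases Arl2 and Arl3, Rp2 and the Src family kinases, had 1 transcript of 50 called for ethanol, and its median difference was 0.0517, against 0.0479 over all tested transcripts. That transcript was ENSMUST00000133900.7 of Src, a tyrosine kinase, annotated as having no open reading frame. Control mice had 2.06, 2.42 and 3.92 TPM of it and stress mice 5.31, 2.18 and 5.39 TPM, whereas ethanol mice had 5.95, 9.01 and 12.3 TPM and ethanol + stress mice 5.49, 5.48 and 6.39 TPM. The ethanol difference was 0.9999 (SE 0.25, adjusted p = 0.544 by limma), and the exposed mice all lay above the not exposed ones.

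The list of the LINC complex and nuclear lamina, with Sun2, the nesprins Syne1 to Syne3 and the lamins, had 1 transcript of 72 called lower for ethanol, and a median of -0.01. It was ENSMUST00000148825.1 of Syne2, which encodes a nesprin, with 1.04, 1.55 and 1.96 TPM in control mice, 1.64, 2.19 and 1.69 TPM in stress mice, 0.525, 0.578 and 0.639 TPM in ethanol mice and 0.745, 1.4 and 0.842 TPM after both (difference -0.77, SE 0.21, adjusted p = 0.642 by limma). Ethanol + stress replicate 2 fell among the control values. The lists of DAPK and myosin phosphorylation (45 transcripts, median 0.04) and of activin and follistatin (39 transcripts, median -0.02) had 0 called for ethanol by limma, with lowest adjusted p-values of 0.683 and 0.690. The count of 2 for ethanol rested on single libraries: it was 1 without control replicate 3 or ethanol + stress replicate 3, 4 without stress replicate 3, 5 without ethanol + stress replicate 1 and 8 without ethanol replicate 3. After each library's trend over transcript length was removed, 6 were called. The 0 of the last 2 lists also varied. When a library was left out, the DAPK list had 0 to 2 called for ethanol and the activin list 0 to 3.

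Among transcripts of other genes with a mean of 1 TPM or more, those whose log2(TPM + 0.5) values ran most like the 5 isoforms over the 12 libraries were, in part, the members themselves. The Unc119 and Dapk3 isoforms had a Pearson r of 0.94 with each other, and of 0.90 and 0.90 with the AI413582 isoform. The AI413582 isoform was most like ENSMUST00000117360.7 of Litaf (r = 0.96), at 0 to 1.60 TPM in exposed and 2.23 to 3.85 TPM in not exposed mice, and ENSMUST00000217289.1 of Htr3a, a subunit of a serotonin receptor channel (r = 0.92), at 7.55 to 10 TPM in exposed and 8.99 to 12.3 TPM in not exposed mice. The Sun1 isoform was most like the processed pseudogene transcript ENSMUST00000228023.1 of Gm49070 (r = 0.98), at 1.09 to 3.73 TPM in exposed and 0 in not exposed mice, and ENSMUST00000177444.7 of Pknox2, a homeobox gene (r = 0.93), with a median of 3.8 TPM in exposed and 1.19 TPM in not exposed mice. The Fst isoform was most like ENSMUST00000223446.1 of Brd9, a bromodomain gene (r = 0.94), and ENSMUST00000155264.1 of Pex5l (r = 0.91). All points share the 12 libraries and the isoforms were chosen for 1 difference between them, so these values are a description. The Htr3a and Pknox2 transcripts overlapped between exposed and not exposed mice, and the others did not.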

How the data were processed

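Hippocampal RNA of 12 mice was analysed, 3 in each of 4 groups set by the sample labels. The deposited values are a signal: TPM per transcript, made by the authors with kallisto from paired-end reads of stranded, rRNA-depleted libraries (CASAVA, kallisto, sleuth and build mm10 in the submitters' processing notes) with a scaling between libraries (sums per library of 889222 to 1173650). Of 115270 transcripts, 113580 were matched to GENCODE M21. Read pairs per library were recovered from low values of single-transcript genes, of which 77.5% to 81.9% came out whole (within 0.05), and intervals or limits of 3 read pairs cover counting error only.

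The 59852 transcripts that reached 0.1 TPM in 6 or more libraries were tested, two-sided, as log2(TPM + 0.5) with limma 3.58.1 (lmFit, eBayes with trend) in R 4.3.3, with all 4 groups in one model and no block. A call is an unadjusted p under 0.01, and adjusted p-values are Benjamini-Hochberg over all tested transcripts. Shares were fitted without trend over 52732 transcripts, and gene sums over 18434 genes. Tables and plots used Python 3.11.15, pandas 2.3.3, numpy 2.4.6, scipy 1.17.1 and matplotlib 3.10.9.

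The members and lists were chosen with earlier results of these data known. Per gene, the text gives in full the isoform with the smallest p for ethanol, the most abundant isoform and any other transcript called for separation or interaction, then the 2 transcripts of other genes most like each isoform and the called transcripts of each list. ENSMUST00000149161.1, ENSMUST00000145183.2, ENSMUST00000231365.1, ENSMUST00000231948.1, ENSMUST00000232203.1, ENSMUST00000178422.8 and ENSMUST00000217936.1 were named after their values were seen. The alternatives were no filter, a filter on the mean or on 1 TPM, pseudocounts of 0.1 and 1, size factors, a common total, removal of the length trend, eBayes without trend, a replicate block, and leaving out each library in turn.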

Additional observations from a re-analysis of the deposited data

How the results depend on the processing

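No call of a member changed for separation over all 12 mice, in level or in share of the gene, under any alternative that was run: 0 were called in each, also without each of the 12 libraries in turn. For the interaction, 0 to 1 were called when a library was left out, and 1 without ethanol + stress replicate 1. For separation within 1 prenatal group, which was looked at after seeing the data, the members called among exposed mice went from 1 to 2 with a pseudocount of 0.1, a filter on the mean or no filter and to 0 with a pseudocount of 1, a minimum of 1 TPM, the length trend removed or the replicate block, and were 0 to 1 when a library was left out. Of the settings with all 12 libraries, ENSMUST00000149161.1 itself was called with a pseudocount of 0.1 and with size factors and in no other. Among not exposed mice, members called went from 0 to 1 with size factors, a common total or the length trend removed, and were 0 to 1 when a library was left out, with 1 without ethanol + stress replicate 1. The 5 isoforms were chosen on the ethanol contrast, so that their ethanol differences kept their direction is no sign of stability. The size of these differences followed the pseudocount: with 0.1 they were -4.60 (Unc119), -4.66 (Dapk3), -5.85 (AI413582), 2.87 (Sun1) and 2.70 (Fst) on the log2 scale. With 1 they were -1.96 (Unc119), -1.84 (Dapk3), -3.16 (AI413582), 0.73 (Sun1) and 0.65 (Fst). Leaving out a library in which the Dapk3, Sun1 or Fst isoform was above 0, or asking for a minimum of 1 TPM, took it below the filter in some settings, so that these gave no value, and the share fit had no alternative without trend because it used none.

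List transcripts called for ethanol were 4 when transcripts were filtered by their mean, 4 when not filtered and 6 with the length trend removed, and 1 to 8 when a library was left out. For separation they were 2 when filtered by the mean, 2 when not filtered, 1 with the length trend removed and 1 with eBayes without trend, against 0, and 0 to 4 when a library was left out: 2 without control replicate 1 or stress replicate 3, 4 without ethanol replicate 3 and 1 without control replicate 3, ethanol replicate 1, stress replicate 1 or ethanol + stress replicate 2. The cause was not tested. Over all transcripts, the ethanol, separation and interaction calls fell from 881, 559 and 511 to 405, 220 and 209 with a minimum of 1 TPM, where fewer were tested, the share calls for separation fell from 564 to 268, and ethanol calls rose to 1339 without ethanol + stress replicate 1.

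The replicate numbers showed no sign of pairing the mice. Deviations from the group means correlated at -0.06 to 0.08 for 18 same-numbered pairs and at -0.13 to 0.13 for 36 others. This check pooled all pairs of groups and cannot exclude pairing by litter, since the litters are not given. With the replicate block, 1 list transcript was called for separation, against 0, and the block changed no call of a member other than that of ENSMUST00000149161.1 among exposed mice. Depth limits the Sun1, Fst and Dapk3 isoforms most, since their values stood for at most 5.93 read pairs.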
